A study of Homo sapiens with 8 samples.

Results

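MALAT1, NEAT1, KCNQ1OT1, PVT1, NORAD, DANCR and TUG1 are long non-coding RNAs (lncRNAs). Their behaviour under an inhibitor of transcription is described here in SW480 cells with and without knockdown of RBMS1. The 7 genes were chosen by name, as widely studied lncRNAs of the nucleus or the cytoplasm, and every transcript listed for them was used. They were represented by 9 transcripts, all 9 of them present for both cell populations, out of 22468 transcripts listed in either table and 19334 listed in both. SW480 is an established human colorectal adenocarcinoma line, although the series text calls it a breast cancer line. All cells carried a stably expressed shRNA, either a control or one against RBMS1, a protein that binds single-stranded nucleic acids. The sample labels name a single RBMS1 clone and the series text names 2, so which clone entered the knockdown libraries is uncertain. RNA was taken before (0 h) or at 9 h of 10 µg/mL alpha-amanitin, a mushroom toxin that inhibits RNA polymerase II, which makes all 7 lncRNAs. Each of the 4 groups, control shRNA at 0 h and 9 h and RBMS1 shRNA at 0 h and 9 h, held 2 libraries, 8 in all.

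The values were the authors' log2 fold changes between 9 h and 0 h, 1 per transcript and cell population, with the libraries already combined. On the authors' scaling, which is not given in the sources used here, a value of 0 means the same level at both times and a value of −1 a level of 50% at 9 h. A level is therefore relative to that scaling and not an amount per cell. No value per library, read count or depth accompanied them, so no value could be set against the spread between libraries, no test was possible and every difference below is a description. Neither the header nor the labels state the direction. It was read as 9 h over 0 h because the short-lived mRNAs MYC, FOS and JUN stood at −1.44, −1.61 and −1.005 with the control shRNA and −1.38, −1.24 and −0.81 with the RBMS1 shRNA in the authors' deposited tables. Of 10 colon epithelial markers, 6 were listed in both tables (EPCAM, KRT8, KRT18, KRT19, CDX2 and CDH1) and KRT20 and VIL1 in the control table alone. Of 9 markers of fibroblasts, immune and endothelial cells, only CD68 was listed.

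LncRNAs act as RNA, and several of these 7 serve as scaffolds or decoys for proteins. MALAT1 sits in nuclear speckles, where splicing factors gather, and NEAT1 is the architectural core of paraspeckles, nuclear bodies built on its long isoform. KCNQ1OT1 is an imprinted RNA transcribed antisense within the KCNQ1 gene that silences neighbouring genes on the same chromosome copy. PVT1 comes from the locus next to MYC and hosts several microRNAs. NORAD is a mainly cytoplasmic decoy for Pumilio proteins such as PUM2, which repress mRNAs. DANCR is a mainly cytoplasmic RNA and host of a small nucleolar RNA, and TUG1 is found in both compartments. In general, how long an RNA persists depends on its ends, its exposure to cytoplasmic decay factors and its splicing state, which is why a few stretches of these RNAs are shown before the values.

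MALAT1 and the long isoform of NEAT1 have no conventional poly(A) tail, whereas the short NEAT1 isoform is polyadenylated. The 3′ ends of MALAT1 and long NEAT1 are cut by RNase P and protected by a triple helix in which an A-rich tract pairs with 2 U-rich stretches. The element was found once in each GENCODE release 29 transcript (GRCh38) by its order of a U-rich stretch, a U-rich stretch interrupted by GC and an A-rich tract, all in capitals, with T written for U. In MALAT1 it lay at chr11:65506019-65506116 on the plus strand, 353 nt before the end of the annotated transcript, which runs past the cut. In NEAT1 it lay at chr11:65445443-65445540 on the plus strand and ended with the annotated transcript.
MALAT1: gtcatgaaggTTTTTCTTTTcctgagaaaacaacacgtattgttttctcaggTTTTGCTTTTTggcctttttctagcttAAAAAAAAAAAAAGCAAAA
NEAT1: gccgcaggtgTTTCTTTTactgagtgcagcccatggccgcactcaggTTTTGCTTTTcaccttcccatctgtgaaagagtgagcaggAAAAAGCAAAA

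NORAD carries its Pumilio sites in repeats. The 8-letter site TGTANATA, searched on the transcript strand only, occurred 15 times in the 5339 nt of NORAD, and in 3 places as a pair 1 base apart. These pairs, with the sites in capitals, are shown because they are the feature by which NORAD is known. They lie on the minus strand of chromosome 20 at chr20:36049493-36049529, chr20:36048296-36048332 and chr20:36047660-36047696 (GRCh38).
NORAD first pair: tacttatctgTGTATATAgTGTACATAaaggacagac
NORAD middle pair: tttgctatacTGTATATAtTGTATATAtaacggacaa
NORAD last pair: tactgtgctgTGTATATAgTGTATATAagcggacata

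TUG1 was listed as 3 transcripts, and GENCODE release 29 links them to 2 models on the plus strand of chromosome 22. The transcripts NR_002323 and NR_110493 are both linked to a model of 3 exons and 7469 nt (chr22:30969270-30979395), so what sets these 2 apart was not analysed here. NR_110492 is linked to a model of 2 exons and 7084 nt (chr22:30970182-30978847), which keeps the first intron of the other model, 1075 nt at chr22:30971780-30972854. Retained introns in TUG1 are known from earlier work to go with nuclear location. The 3 stretches below show the joined exons and the 2 edges of the kept intron. The kept intron is not the only difference between the models, since that of NR_110492 also starts further downstream and ends further upstream. The stretches do not bear on the difference between NR_002323 and NR_110493. Capitals mark the end of the upstream exon in the spliced and 5′ edge sequences, and the start of the downstream exon in the 3′ edge sequence.
TUG1 spliced junction: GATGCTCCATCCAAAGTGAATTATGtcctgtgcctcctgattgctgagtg
TUG1 kept intron, 5′ edge: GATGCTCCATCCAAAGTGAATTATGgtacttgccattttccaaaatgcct
TUG1 kept intron, 3′ edge: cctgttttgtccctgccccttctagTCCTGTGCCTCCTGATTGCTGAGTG

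The first question was how far each lncRNA was retained at 9 h of alpha-amanitin relative to 0 h. How complete the block of transcription was over the 9 h was not tested. The short-lived MYC, FOS and JUN stood no lower than −1.61 with the control shRNA. The percentages below are therefore levels at 9 h and not decay in the full absence of transcription. Among the nuclear RNAs, MALAT1 (NR_002819, chr11:65497762-65506469, a single exon) stood at −0.20 with the control shRNA and 0.02 with the RBMS1 shRNA in the authors' deposited tables, 86.8% and 101.1% of its scaled level at 0 h. MALAT1 thus lay close to the middle of the tables, at percentile 41.1 of all control transcripts and 53.2 of all knockdown transcripts. NEAT1 was listed as its long isoform (NR_131012, chr11:65422798-65445540, a single exon of 22743 nt), at −0.66 with the control shRNA and 0.29 with the RBMS1 shRNA in the authors' deposited tables. This was the lowest control value among the 6 members with 1 listed transcript, with 63.4% of the scaled 0 h level in control cells and 122.6% in knockdown cells. Reads from the first part of NEAT1 belong to its short isoform as well. No other transcript was listed for NEAT1, so the short isoform had no value of its own.

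KCNQ1OT1 (NR_002728, chr11:2608328-2699994 on the minus strand) is an unspliced RNA of 91667 nt. Its values were 0.13 with the control shRNA and 0.23 with the RBMS1 shRNA in the authors' deposited tables, and both lay above 0. It is antisense to KCNQ1. The library kit keeps the strand, but whether reads were counted by strand is not given in the sources used here, so the KCNQ1OT1 values are uncertain in that respect. PVT1 (NR_003367, chr8:127890628-128101253 for the linked model) was at 0.25 with the control shRNA and −0.05 with the RBMS1 shRNA in the authors' deposited tables. It had the highest control value of all 9 transcripts, although at percentile 67.8 of the control table this is an ordinary value. The model linked to this transcript has 8 exons and 1699 nt, and MIR1204, a microRNA of the PVT1 locus, stood at 0.49 for the control and 1.105 for the RBMS1 shRNA in the authors' deposited tables.

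The cytoplasmic RNAs differed from each other. NORAD (NR_027451, chr20:36045622-36050960, minus strand, a single exon) stood at −0.46 with the control shRNA and −0.43 with the RBMS1 shRNA in the authors' deposited tables, which corresponds to 72.6% and 74.4% of the scaled 0 h level. NORAD was the only member gene with every listed transcript below 0 in both populations, and its percentiles of 29.4 and 29.6 were nearly equal. DANCR (NR_024031, chr4:52712404-52714137, 3 exons and 904 nt) was at 0.22 with the control shRNA and 0.09 with the RBMS1 shRNA in the authors' deposited tables, above 0 in both. SNORA26, the small nucleolar RNA that DANCR hosts, was at 0.24 for the control and 0.16 for the RBMS1 shRNA in the authors' deposited tables. MIR4449, a microRNA of the DANCR locus, was listed for the RBMS1 shRNA alone, at −0.69 in the authors' deposited table. Both were added after their values were seen. The nuclear members with 1 listed transcript ran from −0.66 to 0.25 in control cells and the 2 cytoplasmic ones from −0.46 to 0.22 in the authors' deposited tables, so the compartments overlapped.

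TUG1, which the RefSeq gene table lists as protein-coding, had the widest values. NR_002323 was at −0.33 with the control shRNA and −9.18 with the RBMS1 shRNA in the authors' deposited tables. The kept-intron transcript NR_110492 was at −1.52 for the control and 0.70 for the RBMS1 shRNA in the authors' deposited tables. NR_110493 was at −0.60 for the control and 0.49 for the RBMS1 shRNA in the authors' deposited tables. All 3 TUG1 transcripts lay below 0 in control cells, whereas in knockdown cells 2 lay above 0 and 1 near the limit of the table, where no value exceeded 9.995 in size. In knockdown cells the mean of the 3 was −2.66 and the median 0.49, opposite in sign, against −0.82 and −0.60 in control cells. Without abundances the 3 transcripts cannot be weighted, so this unweighted mean and median are no estimate for TUG1 as a gene. They enter only the gene means and gene medians of the alternative settings below.

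**Figure D1:**
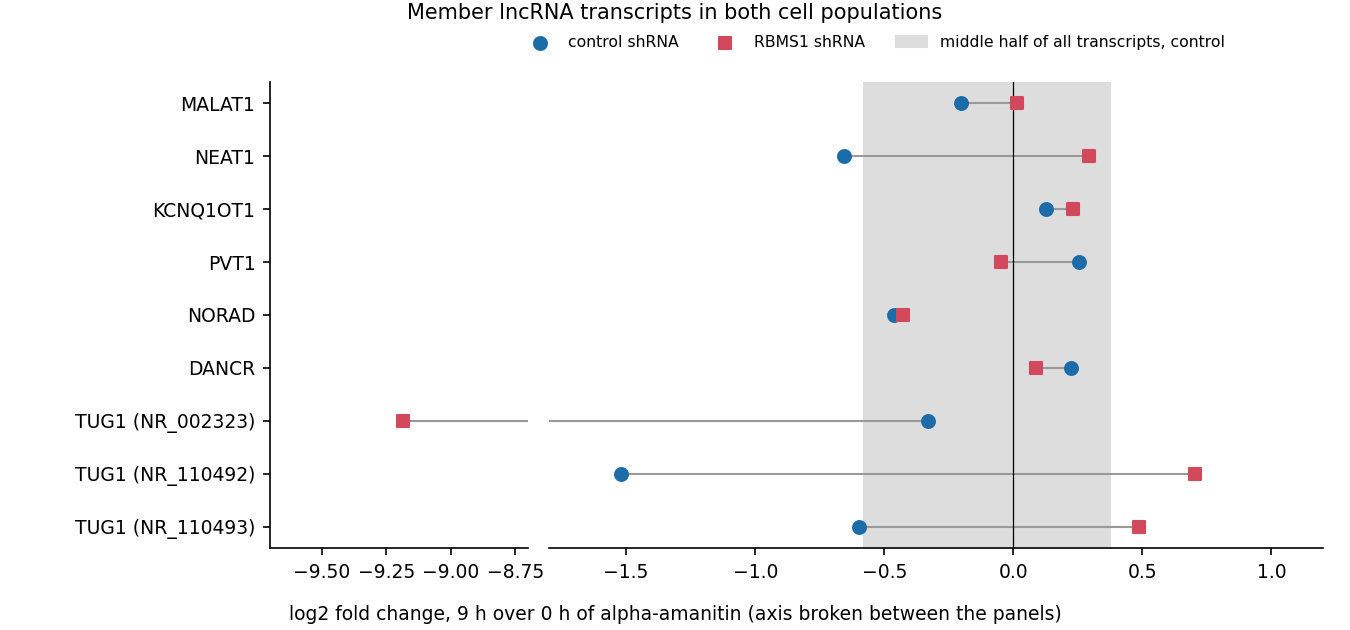
Log2 fold change, 9 h over 0 h of alpha-amanitin, of each member transcript (rows) in control shRNA cells (circles) and RBMS1 shRNA cells (squares), with the axis broken and the quartile range of all control transcripts shaded. The 6 members with 1 listed transcript lie between −0.66 and 0.29, and TUG1 runs from −9.18 to 0.70.

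Counted at a size of 1 on the log2 scale (a factor of 2), 1 of 9 member transcripts lay at −1 or below in control cells, the kept-intron TUG1 transcript, where 13.8% of all 21328 control transcripts did. None lay at 1 or above, where 8.32% of all control transcripts did. In knockdown cells 1 of 9 lay at −1 or below, TUG1 NR_002323, against 12.9% of all 20474 transcripts, and none at 1 or above, against 8.65%. With so few members these shares are near those of the tables. The median of the members was −0.33 for the control and 0.09 for the RBMS1 shRNA, and over all transcripts it was −0.04 and −0.03. Transcripts of GENCODE lncRNA genes had medians of 0.13 over 748 transcripts and 0.16 over 702, with quartiles of −0.44 and 0.65 in control and −0.37 and 0.77 in knockdown cells. Of these lncRNA transcripts 16.4% lay at 1 or above in control cells and 18.7% in knockdown cells, so a value of 1 or more was more frequent among them than over all transcripts. Without TUG1 the median of the members was −0.04 and 0.05. Relative to transcripts of cytosolic ribosomal proteins, the median of all transcripts shifted to −0.45 and −0.42 for the control and RBMS1 shRNA, and the members' medians became −0.74 and −0.30, which turns the sign in knockdown cells.

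**Figure D2:**
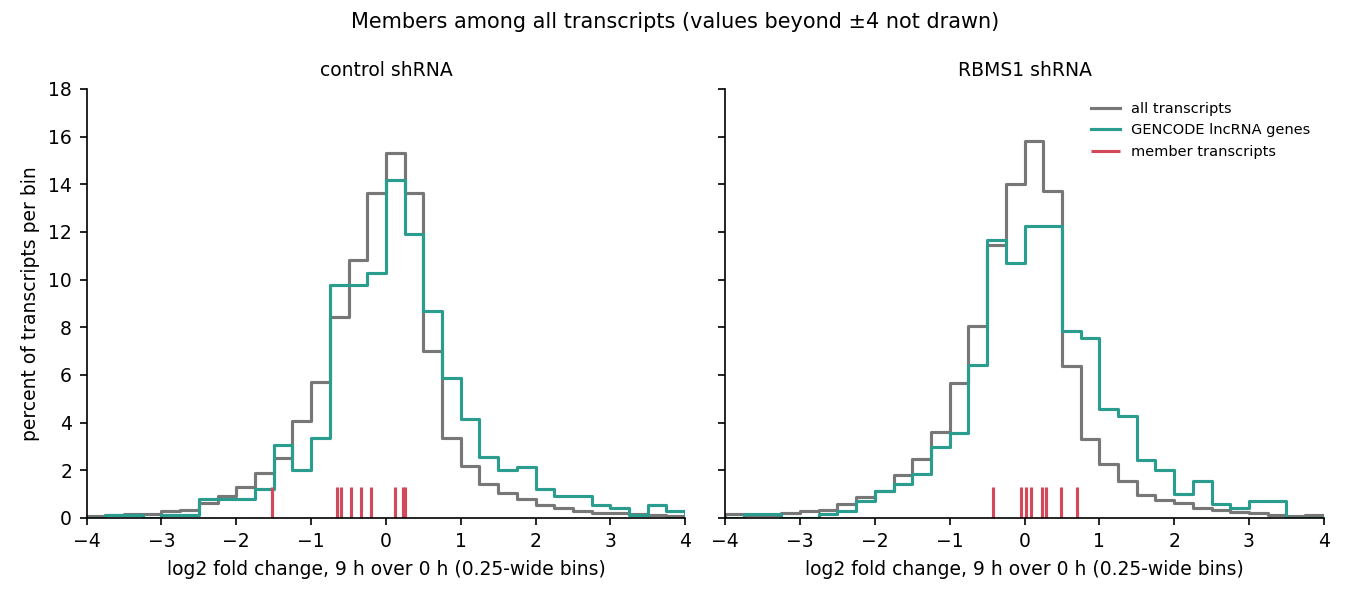
Percent of transcripts per 0.25-wide bin of the log2 fold change, 9 h over 0 h, for all transcripts and for GENCODE lncRNA genes, in control (left) and RBMS1 shRNA cells (right). Vertical marks at the base are member transcripts, all 9 between −1.52 and 0.25 in control cells and 8 between −0.43 and 0.70 in knockdown cells, where TUG1 NR_002323 at −9.18 is outside the drawn range.

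The second question was whether retention differed on RBMS1 knockdown. For each transcript the control value was subtracted from the knockdown value, and the median of these differences over all shared transcripts (−0.02) was then subtracted to centre them. For the 6 members with 1 listed transcript the centred difference was 0.97 for NEAT1, 0.24 for MALAT1, 0.12 for KCNQ1OT1, 0.05 for NORAD, −0.12 for DANCR and −0.28 for PVT1. NEAT1 had the largest size among the 6, at percentile 81.6 by size of all shared transcripts, while the others had sizes in the lower part or the middle of the distribution. That distribution includes genes with several transcripts, which differed more. Over genes with 1 shared transcript the median size was 0.169, and over lncRNA genes of that kind 0.307. NORAD, at percentile 12.98 by size, had the smallest difference of all 9. The TUG1 transcripts differed by 2.24 for NR_110492, 1.102 for NR_110493 and −8.83 for NR_002323, so members of the same gene lay on opposite sides.

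At a size of 1, 2 of 9 transcripts were at 1 or above, both of TUG1, where 8.98% of the 19334 shared transcripts were. A further TUG1 transcript was at −1 or below, where 8.65% of shared transcripts were. NEAT1 lay just under the limit of 1 and TUG1 NR_110493 just over it. The sign was the same in both populations for 74.4% of all shared transcripts and 72.8% of 617 shared lncRNA transcripts. Among the 9 member transcripts it was the same for 4: KCNQ1OT1, NORAD, DANCR and TUG1 NR_002323. Without TUG1 it was the same for 3 of 6 members. Of those that changed sign, MALAT1 at 0.02 and PVT1 at −0.05 were close to 0 with the RBMS1 shRNA in the authors' deposited table.

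**Figure D3:**
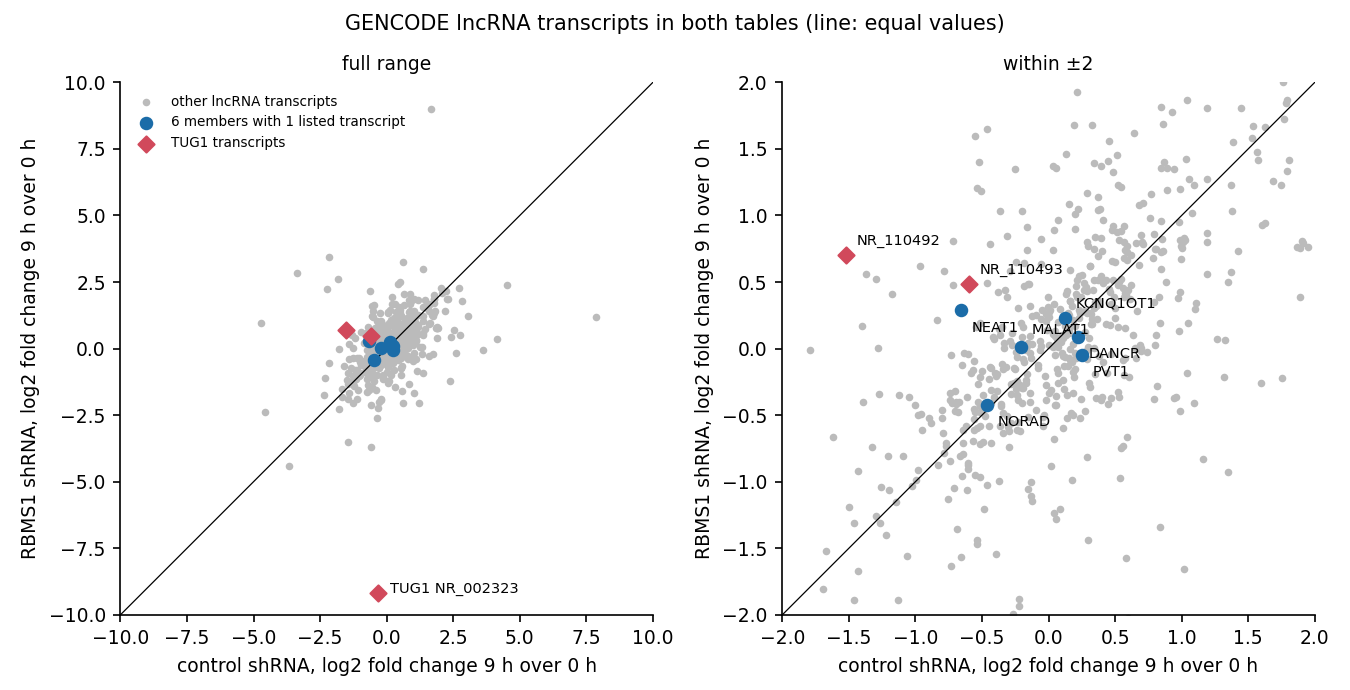
Log2 fold change, 9 h over 0 h, in RBMS1 shRNA cells (vertical) against control cells (horizontal) for the 617 shared lncRNA transcripts, over the full range (left) and within ±2 (right), with a line of equal values. NEAT1 and 2 TUG1 transcripts lie above the line at the upper left, and TUG1 NR_002323 lies alone at the bottom at −9.18.

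Large differences were more frequent in genes with several listed transcripts. Over all genes, 5.96% of 8076 transcripts from genes with a single shared transcript differed by 1 or more in size. Among genes with 2 shared transcripts this was 21.3% of 5758, and among genes with 3 or more it was 31.2% of 5409. For lncRNA genes the shares were 12.7% of 441, 31.9% of 113 and 27% of 63, so there the share did not rise from 2 to 3 or more. All 6 members with a single listed transcript were under 1, and all 3 transcripts of TUG1 were over it. Among the 1529 genes with at least 3 shared transcripts, 350 (22.9%) held a difference of 1 or above together with one of −1 or below, as TUG1 did. A range between transcripts as wide as that of TUG1, 11.08, was found for 57 of them (3.73%), TUG1 included, and the median range was 1.97. Over all genes, 161 shared transcripts (0.833%) differed by 8 or more in size, and 69 of these were within 1 of 0 in 1 table and beyond 8 in the other, as TUG1 NR_002323 was. The part of read assignment between transcripts in the TUG1 values was not tested.

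Length, base composition and short sites were read from the GENCODE models. The members were chosen by name and not by these features. NORAD is however well known for its Pumilio sites, so its site density is not independent of that choice. Of 2096 non-coding accessions in both tables, 1774 (84.6%) were linked to a model, with a median length of 1443 nt and a median GC content of 48.8%. MALAT1, NEAT1, KCNQ1OT1, NORAD and TUG1 were among the longest, at length percentiles from 96.4 for NORAD to 100 for KCNQ1OT1, whereas PVT1 was at 57.2 and DANCR at 36.8. The 4 unspliced RNAs, MALAT1, NEAT1, KCNQ1OT1 and NORAD, had GC contents of 40.3%, 44.0%, 43.7% and 41.6%, below the median, while PVT1 and DANCR at 52.2% and 53.6% were above it. Apart from TUG1, the long members had values from −0.66 to 0.29 and the more GC-rich PVT1 and DANCR from −0.05 to 0.25 in the authors' deposited tables, and these ranges overlapped.

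The Pumilio site TGTANATA occurred in 13.5% of the 1774 models. At 2.81 per kb NORAD had the highest density of all of them, and 2 models, NORAD among them, held 15 or more copies. There were 6 copies in NEAT1, 9 in KCNQ1OT1 and 2 in each TUG1 model, and none was found in MALAT1, PVT1 or DANCR. The 5-letter core ATATA, reported as the preferred site of RBMS1, occurred in 49.1% of models on the transcript strand, and part of its copies overlap Pumilio sites, since those can end in it. It occurred 17 times in NORAD (3.18 per kb), 194 times in KCNQ1OT1 (2.12 per kb), 45 times in NEAT1 (1.98 per kb), 8 times in MALAT1 (0.92 per kb), 2 times in DANCR (2.21 per kb), 9 and 8 times in the spliced and kept-intron TUG1 models (1.205 and 1.129 per kb) and not in PVT1. The AU-rich core ATTTA was found in every member model, from 1.11 per kb in DANCR to 2.53 per kb in MALAT1, and in 57.9% of the 1774 models. The kept intron of TUG1 held 1 ATATA, 3 ATTTA and no Pumilio site in its 1075 nt.

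**Figure D4:**
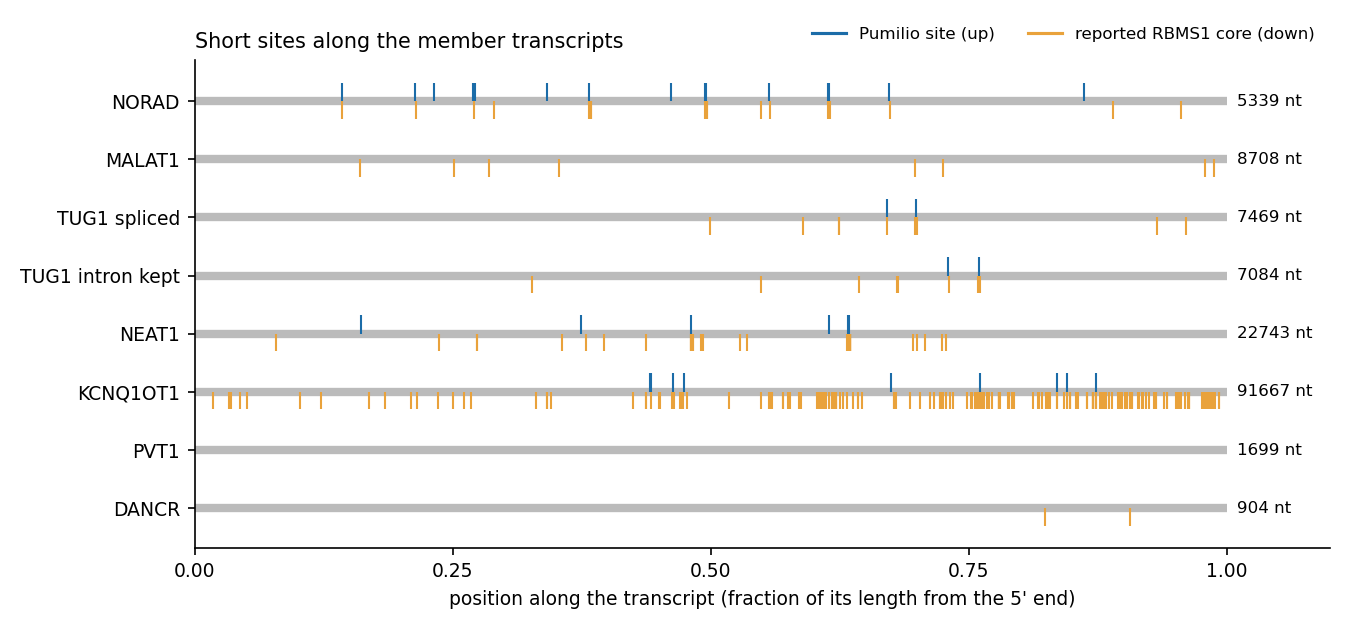
Position of Pumilio sites (marks up) and of the reported RBMS1 core (marks down) along each member transcript, scaled to its length from the 5′ end. NORAD carries 15 Pumilio sites spread over the transcript, TUG1 carries 2 in either model, and none is drawn for MALAT1, PVT1 or DANCR.

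Proteins that bind these RNAs were examined as companion lists. The median centred difference was −0.0036 over 48 transcripts of 19 paraspeckle proteins, −0.15 over 36 transcripts of 16 nuclear speckle proteins and 0.08 over 16 transcripts of 9 NORAD partners, against 0 over all shared transcripts. Of the paraspeckle transcripts 6 were at 1 or above and 3 at −1 or below, where 8.98% and 8.65% of all shared transcripts were. All 9 came from genes with several transcripts, EWSR1, HNRNPH3, HNRNPR, MATR3 and SMARCA4 among them. Over all genes with 2 or more shared transcripts, 26.1% of transcripts differed by 1 or more in size. HNRNPR was among the lowest genes by the mean of both tables. RBM14, needed for paraspeckle assembly, was among the highest at 0.51 for the control and 0.62 for the RBMS1 shRNA in the authors' deposited tables, with CPSF6. Among speckle proteins, SRRM2, a scaffold of speckles with a single listed transcript, was at −1.47 with the control shRNA and 0.04 with the RBMS1 shRNA in the authors' deposited tables, which gave it a centred difference of 1.53. SRRM1 and SRSF3 were lowest by the mean of both tables, and SRSF1 and SRSF5 highest. A further 3 speckle transcripts, of CLK1, SRRM1 and SRSF7, were at 1 or above, and 1 each of RNPS1 and SON at −1 or below. In each of these genes the other shared transcripts lay on the opposite side of 0. In all, 4 of 36 speckle transcripts were at 1 or above and 2 at −1 or below, against 8.98% and 8.65% of all shared transcripts.

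Among the NORAD partners, PUM2 had 3 transcripts, at −1.27, −1.05 and −0.78 with the control shRNA and 0.16, −0.65 and −1.19 with the RBMS1 shRNA in the authors' deposited tables. The topoisomerase TOP1 was at −0.87 with the control shRNA and 0.38 with the RBMS1 shRNA in the authors' deposited tables. This gave it a centred difference of 1.28, and a PUM2 transcript was the other at 1 or above. Thus 2 of 16 partner transcripts were at 1 or above and 0 at −1 or below. Of all shared transcripts 8.98% and 8.65% were. IGF2BP1, an mRNA-binding protein, stood at −1.20 for the control and −0.28 for the RBMS1 shRNA in the authors' deposited tables. The splicing and export factors ALYREF and PRPF19 were highest, ALYREF at 0.44 for the control and 0.38 for the RBMS1 shRNA in the authors' deposited tables.

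Of 55 symbols listed for other well-known lncRNAs, 35 had transcripts in both tables, 58 in all. Their median was −0.04 with the control and −0.0012 with the RBMS1 shRNA. The list holds RN7SK, RN7SL1, RMRP and RPPH1, which are made by RNA polymerase III, an enzyme much less sensitive to alpha-amanitin, so their values do not describe retention without new transcription. Without these 4 the medians over 54 transcripts were −0.09 and −0.03. In control cells 11 of the 58 were at −1 or below and 2 at 1 or above, against 13.8% and 8.32% of all control transcripts. In knockdown cells 9 and 4 were, against 12.9% and 8.65% of all knockdown transcripts. The centred difference was 1 or above for 9 and −1 or below for 2, against 8.98% and 8.65% of all shared transcripts. HOTAIR, a HOX-cluster RNA, was among the lowest genes, with transcripts at −1.62 and −1.50 with the control shRNA and −0.67 and −1.19 with the RBMS1 shRNA in the authors' deposited tables. EPB41L4A-AS1 was alike in both, at −1.15 for the control and −1.15 for the RBMS1 shRNA in the authors' deposited tables. At the high end MIR22HG had shared transcripts at 0.96, 2.62 and 1.65 with the control shRNA and −0.37, −0.15 and 9.00 with the RBMS1 shRNA in the authors' deposited tables, and THRIL was at 0.79 and 0.68, in the same order. Differences of 1 or above were also found for transcripts of SNHG16 (4.52 and 4.44), CHASERR (1.88), LINC-PINT (1.67), CYTOR (1.62), CRNDE (1.38), ZFAS1 (1.09) and HOXA11-AS (1.09), the last a gene with 1 listed transcript. Such differences were thus not particular to TUG1 among these lncRNAs.

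**Figure D5:**
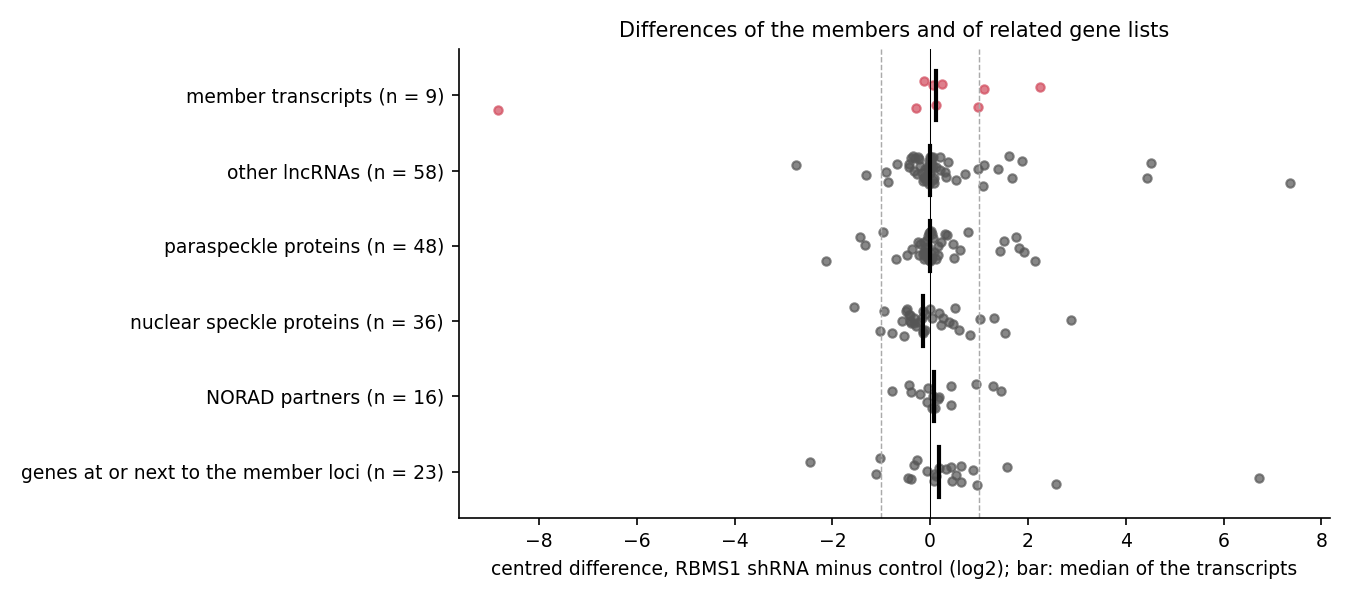
Centred difference, RBMS1 shRNA minus control, of each shared transcript of the members and of 5 companion lists, with a bar at the median and dashed lines at ±1. The medians lie between −0.15 and 0.17, and the member at the far left is TUG1 NR_002323 at −8.83.

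The lncRNAs of that list nearest to each member over the 2 tables, by Euclidean distance on the log2 scale, were found for each transcript. With only 2 values per transcript, nearness describes position and nothing further. PVT1 lay nearest to a transcript of SNHG16 (distance 0.05) and then the polymerase III transcript RMRP, DANCR to DLEU2 (0.08) and CYTOR, KCNQ1OT1 to OIP5-AS1 (0.11) and CYTOR, and MALAT1 to HOXA-AS2 (0.14) and DLEU1. NORAD lay nearest to LINC00511 (0.22) and SNHG1. NEAT1 and TUG1 NR_110493 had the same neighbours, transcripts of ZFAS1 and CRNDE, at 0.18 and 0.32 from NEAT1 and at 0.02 and 0.21 from TUG1. The kept-intron TUG1 transcript lay nearest to CHASERR (0.37) and LINC-PINT, and TUG1 NR_002323 had no close neighbour, the nearest, of SNHG7, being 7.5 away.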

How the data were processed

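Total RNA of SW480 cells was depleted of ribosomal RNA and sequenced from ScriptSeq libraries, per the labels' protocols. The submitters' processing notes list STAR 2.5, Cufflinks, Cuffdiff and hg38 without roles. The authors deposited 1 log2 fold change per RefSeq transcript for each shRNA; the header says only logFC, and base 2 was taken because Cuffdiff writes it. How libraries were scaled and which transcripts were left out was not given in the sources used here. Depth is unknown.

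Symbols came from the RefSeq gene table (GRCh38.p14) for 22132 accessions and from GENCODE release 29 for 212, among them the 3 of TUG1, while 124 had none. Every listed transcript was used, in Python 3.11.15 with pandas 2.3.3. Differences were taken over transcripts in both tables and centred. Centring and percentiles were tested on simulated data. Sequences and coordinates are from GENCODE release 29, which uses the hg38 assembly, GRCh38. Where several models were linked, the longest was taken for the non-coding background and the first for the members. Members are all named; companion lists name the 2 lowest and 2 highest genes by the mean of both tables and transcripts with a difference of 1 or more in size, some of them by name only, and a few are not reported here. SNORA26 and MIR4449 were added after their values were seen. Members and lists were chosen with earlier results of these data known.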

Additional observations from a re-analysis of the deposited data

How the results depend on the processing

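The tables hold no library values, so no spread, left-out library or depth limit could be computed. No paired analysis was possible because the tables give 1 value per transcript and population and the columns carry no replicate. Counts at 1 or above were 0 in control cells under every alternative run; in knockdown cells the count became 1 at a size of 0.5. In control cells the count of 1 at −1 or below became 0 with gene means, gene medians or a size of 2, 3 at a size of 0.5 and 3 relative to ribosomal protein transcripts. In knockdown cells it became 0 with gene medians. The control median of −0.33 became −0.20 with gene means, −0.74 relative to ribosomal proteins and −0.0389 without TUG1, an alternative chosen after seeing the data. The knockdown median of 0.09 became 0.16 without transcripts beyond 5, 0.0152 with gene means, −0.30 relative to ribosomal proteins and 0.0522 without TUG1. The median percentile of the members was 35.0 in control and 57.7 in knockdown cells. It was 29.5 and 46.7 among non-coding accessions, 33.9 and 60 among genes with 1 listed transcript, and 29.5 and 46.5 among GENCODE lncRNA genes, the last added after seeing the data. The median difference of 0.12 became 0.11 without centring, 0.13 centred on non-coding accessions and 0.14 relative to ribosomal proteins. Counts of differences past 1 were the same under these centrings, and NEAT1 stayed between 0.95 and 0.99. The medians without polymerase III transcripts were added after seeing the data.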

Other observations

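Genes at or next to the member loci were examined last. Of 27 symbols fixed for this list, 14 genes had 23 transcripts in both tables, with a median of −0.07 in control and 0.16 in knockdown cells and a median centred difference of 0.17. Of the 23 centred differences, 3 were at 1 or above and 3 at −1 or below, against 8.98% and 8.65% of all shared transcripts. CDKN1C, a cyclin-dependent kinase inhibitor from the imprinted domain of KCNQ1OT1, had transcripts at −1.88 and 0.35 with the control shRNA and 4.84 and −2.13 with the RBMS1 shRNA in the authors' deposited tables, on opposite sides as for TUG1. PHLDA2, another imprinted gene of that domain, was high and alike in both, at 1.44 for the control and 1.59 for the RBMS1 shRNA in the authors' deposited tables. MORC2, beside TUG1, had shared transcripts with centred differences of 1.56 and −1.11. A transcript of EPB41L1, near NORAD, had a centred difference of 2.57. MIR1204 of the PVT1 locus was the other high gene. Of the lowest genes, MYC beside PVT1 was at −1.44 and −1.38 and ERVMER34-1 beside DANCR at −0.92 and −0.76 with the control shRNA and −1.27 and −0.69 with the RBMS1 shRNA in the authors' deposited tables. PVT1, at 0.25 for the control and −0.05 for the RBMS1 shRNA in the authors' deposited tables, lay above MYC in both populations.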
